A study of Mus musculus with 11 samples.

Results

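Effector conventional CD4 T cells of the inflamed lacrimal gland (LG_eTconv, 3 arrays) were compared with lacrimal gland CD4 T cells sorted as negative for PD-1 and ICOS (LG_naïve, 3 arrays). These 6 arrays, taken by their titles, are 6 of the 11 arrays of the study. All cells came from 16-week-old male mice of the NOD strain, in which lymphocytes invade the tear gland without any treatment, and no agent or engineered allele is given for any group. Live CD4+ TCRβ+ cells were sorted, LG_naïve as PD-1 and ICOS negative and LG_eTconv as PD-1 high and ICOS high. Another gland subset, effector regulatory cells (LG_eTreg, 3 arrays), was also PD-1 high and ICOS high. The labels give the same low CD73 and low CD200 gate for both effector subsets, so they do not say what separated them. Total CD4 and total CD8 T cells of the spleen (Spl_CD4 and Spl_CD8, 1 array each) are quoted as single levels with no test. The labels do not say whether the 3 replicates of a group came from separate mice or pools, so p-values measure the spread between these arrays, which may be technical.

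A naive CD4 T cell recirculates through blood and lymphoid organs under factors such as Klf2 and Lef1. After it meets antigen it can become an effector, which leaves that programme, enters tissue and secretes cytokines such as interferon-γ, interleukin-2 and interleukin-21. PD-1 and ICOS, the receptors used for the sort, are induced by antigen receptor signals. NOD mice are used as a model of Sjögren's syndrome, in which T cells and B cells gather in the tear and salivary glands.

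Signals are on the log2 scale, differences are LG_eTconv minus LG_naïve unless another group is named, and SE is the standard error of a difference. A gene was called higher or lower at an adjusted p under 0.05 (limma, Benjamini-Hochberg over all 17097 genes), and "rose" and "fell" are used of called genes only, as a difference between sorted groups and not a change in time. A signal was taken as background where it did not exceed the highest nonspecific control probe set of its array, a limit between 0.945 and 1.70. Where every array of a group lay at or below its limit, the difference is also stated as a lower bound (at least N-fold), with the limit in place of the dimmer group. Where averaging all probe sets of a gene, in place of its brightest, moved a difference by over 1.5 times, the averaged difference is given at the end of the paragraph. In sorted bulk RNA, fewer cells of a type and less RNA per cell cannot be told apart.

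The labels were first checked against marker genes. Cd3e, a chain of the T cell receptor complex, read 9.58, 9.44 and 9.75 on the 3 LG_eTconv arrays and 9.19, 9.59 and 9.55 on the 3 LG_naïve arrays, and the difference of 0.15 did not pass (adjusted p = 0.612). Of the genes that mark naive cells, Igfbp4 and Lef1 were higher in LG_naïve, as described below with their values. The sort genes are a check and not a result: Pdcd1, which encodes PD-1, read 6.77, 7.19 and 7.72 in LG_eTconv and 1.63, 2.15 and 1.70 in LG_naïve. Icos transcript was well above background in both, at 9.71, 9.76 and 9.64 and 8.50, 8.77 and 8.66. Transcript of Nt5e and Cd200, the genes of CD73 and CD200, did not follow the low gate of the labels: it lay 4.35 and 3.62 above LG_naïve, and 0.93 (adjusted p = 0.0462) and 1.10 (adjusted p = 0.00222) above LG_eTreg. Foxp3, the factor that defines regulatory T cells, read 4.26, 4.85 and 3.61 in LG_eTconv and 2.86, 4.04 and 4.95 in LG_naïve, overlapping ranges (adjusted p = 0.802), while LG_eTreg read 8.21, 8.13 and 8.21. With all probe sets of a gene averaged, the difference was 1.88 for Icos and 2.42 for Nt5e.

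Replicates lay close to each other: Pearson's r over all genes was 0.987 to 0.991 among LG_eTconv arrays, 0.980 to 0.989 among LG_naïve arrays and 0.943 to 0.954 between the groups. Between 9483 and 10722 genes per array exceeded background on these 6 arrays. A pair of arrays each stood apart in a single control. LG_naïve 1 had a mean 18S ribosomal RNA control signal of 6.63, against 4.70 to 5.43 on the other 5 arrays, and LG_eTconv 1 had the widest actin control gap (3′ minus 5′ signal), 3.35 against 1.83 to 2.46. The same gap of the GAPDH control did not set LG_eTconv 1 apart, at 3.24 against 2.48 to 3.35 on the other 5 arrays.

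LG_eTconv and LG_naïve differed widely. Of 17097 genes, 2303 (13.5%) were called, 1103 higher (6.45%) and 1200 lower (7.02%). These shares are the background for the counts of each gene list below. In each of the 2303 called genes the groups did not overlap; among all genes the groups did not overlap in 5313 (31.1%). The median difference over all genes was -0.03. The rises were larger than the falls, with a median of 1.44 among called higher genes and -1.17 among called lower genes. A difference of at least 4 was reached by 85 higher and 27 lower genes, and one of at least 5 by 32 higher and 4 lower genes. Among the higher genes, 168 were at background on all 3 LG_naïve arrays, and among the lower genes, 135 were at background on all 3 LG_eTconv arrays.

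**Figure D1:**
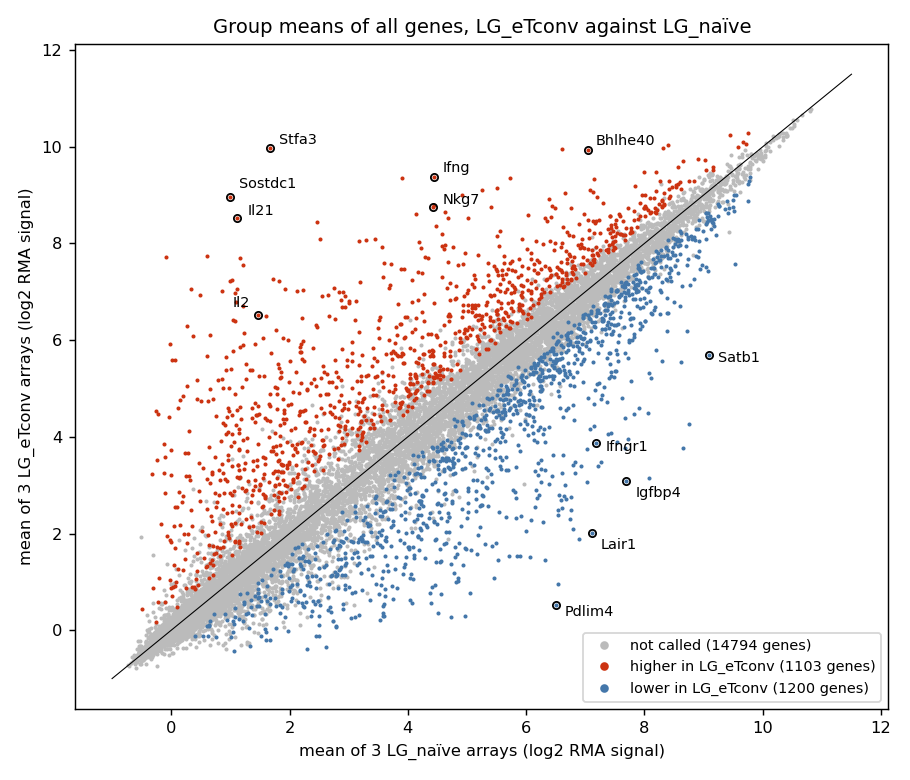
Mean log2 RMA signal of the 3 LG_eTconv arrays (vertical) against the 3 LG_naïve arrays (horizontal) for 17097 genes, 1 point a gene, with the line of equal signal. The 1103 called higher genes (red) and 1200 called lower genes (blue) lie on either side of the line, and the labelled cytokine genes lie far above it.

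The cytokine genes Il21, Il2 and Ifng were taken as markers of this comparison, so their rise is not a separate finding. Of them, Il21 was among the 15 largest rises, and Il2 and Ifng were not. Interleukin-21, a helper cytokine that acts on B cells and on T cells themselves, had Il21 signals of 8.34, 8.66 and 8.56 in LG_eTconv and 0.89, 1.27 and 1.18 in LG_naïve, a difference of 7.40 (SE 0.14, adjusted p = 3.79e-08). LG_eTreg lay between the groups at 5.73, 5.59 and 5.54, 2.90 below LG_eTconv (adjusted p = 9.96e-06). Il2, whose product is a growth factor of T cells, read 6.52, 6.53 and 6.53 in LG_eTconv, 1.34, 0.69 and 2.40 in LG_naïve and 1.59, 1.87 and 0.93 in LG_eTreg. It was thus higher by 5.05 (SE 0.40, adjusted p = 7.54e-05) than in LG_naïve and by 5.07 (adjusted p = 0.000156) than in LG_eTreg, and only 1 of the 3 LG_naïve arrays exceeded background. Ifng, which encodes interferon-γ, the cytokine that activates macrophages, read 9.34, 9.35 and 9.42 against 4.70, 4.45 and 4.17, a difference of 4.93 (SE 0.16, adjusted p = 8.34e-07). Here LG_eTreg was high too, at 8.57, 8.97 and 8.71, and the difference of 0.62 between the effector subsets did not pass (adjusted p = 0.0627). The Ifng level of LG_naïve was close to that of total spleen CD4 cells, 4.49 on their single array. For Il21, the mean of all probe sets gave 5.25.

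The 250 bases before the start sites of 3 of these cytokine genes and of Nts, which rose by a like amount, are shown because calcium-driven NFAT factors and AP-1 factors act at cytokine promoters. They are from RefSeq, mouse build GRCm38.p6, on the strand of the gene, with matches to GGAAAA (an NFAT-type core, either strand, so also TTTTCC) and to TGANTCA (an AP-1 site, which reads the same on both strands) in capitals. The motifs do not overlap each other in these stretches. Il21 lies at chr3:37232637-37232886 and Il2 at chr3:37125955-37126204, both on the minus strand, so that these neighbouring genes share a chromosome region. Ifng lies at chr10:118440796-118441045 on the plus strand and Nts at chr10:102490419-102490668 on the minus strand.
Il21: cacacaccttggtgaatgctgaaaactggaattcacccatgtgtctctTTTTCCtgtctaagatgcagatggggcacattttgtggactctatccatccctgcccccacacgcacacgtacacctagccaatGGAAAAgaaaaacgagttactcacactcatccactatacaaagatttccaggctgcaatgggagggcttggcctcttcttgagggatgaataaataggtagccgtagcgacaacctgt
Il2: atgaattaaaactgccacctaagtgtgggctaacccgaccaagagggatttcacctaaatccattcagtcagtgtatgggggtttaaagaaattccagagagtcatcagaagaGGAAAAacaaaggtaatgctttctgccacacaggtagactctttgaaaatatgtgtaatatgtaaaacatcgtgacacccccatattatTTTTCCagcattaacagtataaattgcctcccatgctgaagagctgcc
Ifng: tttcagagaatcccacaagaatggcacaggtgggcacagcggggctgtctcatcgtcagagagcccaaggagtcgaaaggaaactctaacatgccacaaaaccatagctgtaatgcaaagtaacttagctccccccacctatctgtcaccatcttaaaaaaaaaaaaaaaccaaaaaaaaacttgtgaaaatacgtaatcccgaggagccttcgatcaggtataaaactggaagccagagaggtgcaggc
Nts: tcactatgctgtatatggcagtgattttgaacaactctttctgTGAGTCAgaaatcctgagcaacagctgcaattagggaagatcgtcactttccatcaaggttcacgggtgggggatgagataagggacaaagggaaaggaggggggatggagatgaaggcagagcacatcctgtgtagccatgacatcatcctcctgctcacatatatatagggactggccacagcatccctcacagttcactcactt
Il21 and Il2 each held 2 NFAT-type matches and no AP-1 match, Nts held 1 AP-1 match, and Ifng held neither. Of the 17 marker genes and largest rises, 13 had a promoter in the table, and 9 of these had an NFAT-type match and 3 an AP-1 match in at least 1 promoter. Among 32817 promoters of the same length, 20.4% held GGAAAA and 6.75% TGANTCA. These shares are per promoter, while the counts are per gene. Rph3a and Bcat1 had several promoters, so counts and shares are not like for like. A match describes the letters only.

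Also among the 15 largest rises, and at background on all LG_naïve arrays, were the secreted or matrix protein genes Sostdc1, Ccn4 and Col24a1. Sostdc1, which encodes a secreted inhibitor of BMP and Wnt ligands, read 8.93, 8.78 and 9.15 in LG_eTconv and 1.19, 0.75 and 1.02 in LG_naïve, at least 182-fold higher (adjusted p = 4.18e-07), and 3.59, 3.60 and 2.86 in LG_eTreg. Ccn4, a matricellular protein, read 7.67, 7.94 and 7.58 against -0.44, 0.00 and 0.15, at least 78.1-fold higher (adjusted p = 3.26e-07); with 6.18, 6.75 and 6.58 it was high in LG_eTreg as well. Col24a1, a fibrillar collagen chain, read 7.14, 7.07 and 6.98 against 0.43, 0.30 and 0.27 and 0.50, 0.37 and 0.60 in LG_eTreg, at least 49.2-fold above LG_naïve and at least 57.4-fold above LG_eTreg. Its 3 LG_eTconv arrays were the only ones of the 9 gland arrays with signal above background. The differences by the mean of all probe sets were 7.10 for Sostdc1 and 6.07 for Ccn4.

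Neuropeptide precursors were among the rises as well. Nts, the precursor of neurotensin, read 6.77, 6.97 and 7.05 in LG_eTconv, 0.40, 0.43 and 0.61 in LG_naïve and 0.26, 0.81 and 0.31 in LG_eTreg, at least 45.0-fold above LG_naïve and at least 52.4-fold above LG_eTreg. Penk, the precursor of the enkephalin opioid peptides, read 7.86, 7.77 and 7.47 against 0.80, 0.85 and 1.87, a difference of 6.53 (SE 0.28, adjusted p = 2.68e-06). Unlike Nts, Penk was high in LG_eTreg (6.86, 6.55 and 6.55), and the difference of 1.05 between the effector subsets did not pass (adjusted p = 0.0739).

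Inside the cell, the largest rise of all was Stfa3, a stefin that inhibits cysteine proteases, with 9.97, 10.01 and 9.94 in LG_eTconv and 1.06, 1.20 and 2.76 in LG_naïve (difference 8.30, SE 0.48, adjusted p = 1.25e-05). Total spleen CD4 cells read 6.22 for it, above every LG_naïve and LG_eTreg array. Twist2, a basic helix-loop-helix transcription factor, read 6.32, 5.40 and 6.01 against 0.00, -0.11 and 0.04, at least 22.1-fold higher, and was at background on all LG_eTreg arrays. Rph3a, a Rab effector of vesicle release, was likewise at background in both other gland subsets and read 6.20, 6.15 and 6.51 in LG_eTconv, at least 28.7-fold above LG_naïve. Pdzrn3, a ubiquitin ligase, read 7.34, 7.10 and 7.20 against 0.68, 1.40 and 0.88 (difference 6.22) and Elmod1, which acts on Arl GTPases, 7.16, 7.31 and 7.24 against 0.80, 0.82 and 1.48 (difference 6.20). Bcat1, which starts the breakdown of branched-chain amino acids in the cytosol, rose by 6.35 (SE 0.26, adjusted p = 2.31e-06), with 7.61, 7.49 and 7.59 against 0.72, 1.17 and 1.73. Slc9b2, a sodium-proton exchanger, differed by 5.96. Separation of the groups was a condition for these genes to be picked. No LG_naïve array of these 7 genes lay above 2.76. By the mean of all probe sets, the difference was 3.50 for Rph3a and 2.61 for Bcat1.

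At the surface, Ptger2, a receptor for prostaglandin E2, read 8.10, 8.69 and 8.53 against 2.20, 2.92 and 2.28, a rise of 5.97 (SE 0.24, adjusted p = 2.12e-06). Pdcd1lg2, which encodes the PD-1 ligand PD-L2, read 6.28, 6.21 and 5.74 against 0.26, 0.84 and -0.01, at least 24.8-fold higher (adjusted p = 5.79e-06). LG_eTreg was high for both, at 7.34, 7.88 and 7.72 and 4.93, 4.43 and 5.29. Chdh, a mitochondrial choline dehydrogenase, is the gene that joins the list when the called rises are ordered by distance from LG_eTreg: 8.56, 8.31 and 8.20 in LG_eTconv, 3.92, 4.72 and 4.80 in LG_naïve and 1.38, 3.63 and 2.17 in LG_eTreg, 5.96 above LG_eTreg (adjusted p = 0.000237). The other 7 with the largest distance from LG_eTreg were Stfa3, Col24a1, Nts, Rph3a, Twist2, Sostdc1 and Elmod1, all between 5.38 and 7.37 above it; this comparison shares the LG_eTconv arrays with the one against LG_naïve. Other probe sets of some of these genes gave smaller differences from LG_naïve, down to 0.37 for Bcat1, 0.99 for Rph3a and 3.09 for Il21.

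**Figure D2:**
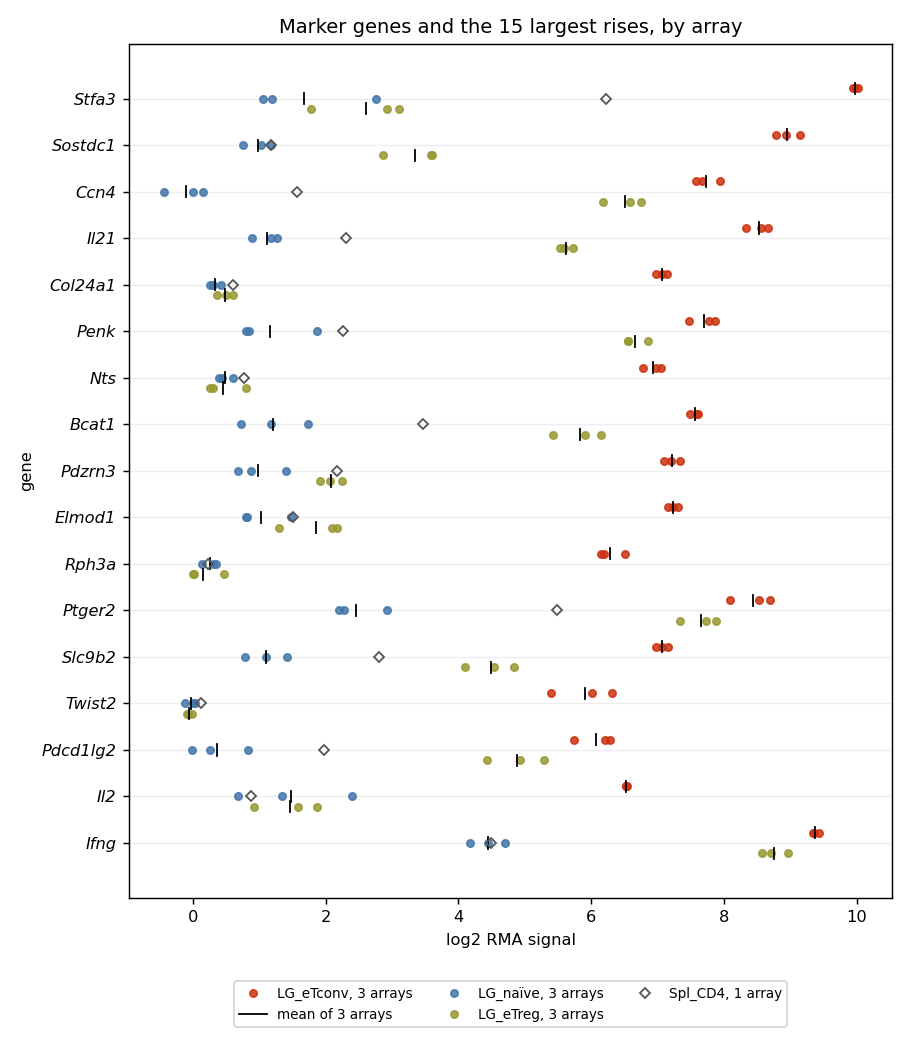
Log2 RMA signal (horizontal) of the marker genes and the 15 largest rises on each LG_eTconv, LG_naïve and LG_eTreg array and on the single Spl_CD4 array, with a bar at each mean of 3. The LG_eTconv points lie to the right of the LG_naïve points for every gene shown, which was a condition for the 15 rises to be picked. LG_eTreg is near LG_eTconv for Ccn4, Penk, Ptger2 and Ifng and near LG_naïve for Col24a1, Nts, Rph3a and Twist2.

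Of 28 cytokine and chemokine genes measured, 14 were higher, 13 were not called (8 of the 28 were at background on all 6 arrays) and 1 was lower, where 6.45% and 7.02% of all genes were, with a median difference of 0.91 (0.67 with values at the background limit), against -0.03 over all genes. Besides those above, the chemokine genes Xcl1, whose product draws cross-presenting dendritic cells, and Ccl1, the ligand of Ccr8, rose. Xcl1 read 8.08, 8.22 and 7.89 against 4.13, 3.01 and 2.74 (difference 4.77, adjusted p = 4.11e-05) and 3.99, 4.57 and 4.61 in LG_eTreg. Ccl1 read 6.17, 6.08 and 6.22 against 0.80, 0.90 and 1.97 (difference 4.93, adjusted p = 9.92e-05), also 3.06 above LG_eTreg (adjusted p = 0.00317). Csf1, a macrophage growth factor, rose by 3.80, Cxcl10, a Cxcr3 ligand, by 2.83, Lif, a cytokine of the interleukin-6 family, by 2.65 and lymphotoxin Lta by 2.30. Tumour necrosis factor, Tnf, rose less, with 6.75, 6.56 and 6.29 against 5.39, 5.24 and 5.31 (difference 1.22, adjusted p = 0.000365). Il10, an anti-inflammatory cytokine, read 5.37, 5.12 and 5.26 against 1.39, 1.46 and 1.61 (difference 3.76) but 8.80, 9.11 and 9.03 in LG_eTreg. Il4 and Il17a, cytokines of other helper lineages, were at background on all 6 arrays. The 1 lower gene was Ccl4, a chemokine, at 3.39, 3.71 and 3.38 against 4.80, 4.21 and 4.34 (adjusted p = 0.0302), a call lost without any 1 of LG_eTconv 1, LG_eTconv 3, LG_naïve 1 and LG_naïve 3, when the adjusted p was 0.0670 to 0.0968. With all probe sets of a gene averaged, the difference was 2.92 for Csf1 and 0.92 for Lif.

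Other T helper 1 genes rose beside Ifng. Of 23 measured genes of the T helper 1 and cytotoxic list, 13 were higher and 3 lower, with a median of 1.18 (0.97 at the background limit). Tbx21, which encodes the lineage factor T-bet, read 6.13, 6.39 and 6.81 against 2.97, 3.07 and 2.23 (difference 3.68, SE 0.30, adjusted p = 8.77e-05). Nkg7, a granule membrane protein, read 8.85, 8.78 and 8.62 against 4.16, 4.10 and 5.02 (difference 4.32). Cxcr3, a homing receptor for inflamed tissue, read 7.93, 7.85 and 8.10 against 5.49, 3.85 and 4.54 (difference 3.34), with LG_naïve 1 the highest of its group. Il18rap and Il18r1, the chains of the interleukin-18 receptor, rose by 3.83 and 0.70, and Il12rb1, a chain of the interleukin-12 receptor, by 1.18. Stat4, which signals from that receptor, rose by 0.97 and was 0.96 above LG_eTreg (adjusted p = 0.00114). Granzyme B differed from these: Gzmb read 0.79, 0.89 and 1.21 in LG_eTconv, above background on 1 array, and 0.70, 0.49 and 0.48 in LG_naïve, none above, but 5.26, 5.94 and 5.93 in LG_eTreg. Runx3, a factor of cytotoxic lineages, was among the lower genes (-1.21, adjusted p = 0.000593) with Eomes and Ccl4. The number lower was 1 rather than 3 without LG_eTconv 3 or LG_naïve 3. The mean of all probe sets gave a difference of 2.82 for Il18rap and -0.62 for Runx3.

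Follicular helper genes encode products that direct help to B cells. Of 21 measured, 11 were higher and 0 lower, with a median of 0.91; 2 others passed an unadjusted p of 0.05. Besides Il21 and Sostdc1, Cxcr5, the receptor that guides cells to B cell follicles, read 4.74, 4.69 and 5.16 against 2.65, 2.32 and 2.57 (difference 2.35, SE 0.27, adjusted p = 0.000586). Maf, a transcription factor that drives Il21, rose by 3.30 and Tnfsf8, the ligand of CD30, by 3.24. Slamf6, an adhesion receptor of T and B cell contact, read 8.57, 8.41 and 8.40 against 6.31, 6.30 and 6.44 in LG_naïve and 6.32, 6.46 and 6.22 in LG_eTreg, and so was higher than both by 2.11 and 2.13 (adjusted p = 6.11e-06 and 1.2e-05). Bcl6, the lineage factor itself, moved little, at 8.52, 8.60 and 8.60 against 7.87, 8.17 and 7.97 (difference 0.57, SE 0.12, adjusted p = 0.0135), and did not pass when its 2 probe sets were averaged (adjusted p = 0.210). Cd40lg, a help signal to B cells, did not pass (4.61, 4.90 and 4.94 against 5.54, 4.48 and 4.80, adjusted p = 0.875), though it was 2.12 above LG_eTreg (adjusted p = 0.00407). Of the 21 genes, 10 were higher than in LG_eTreg, where 2.76% of all genes were, and 0 lower. The Slamf6 difference was 1.39 with probe sets averaged.

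Costimulatory receptors and ligands of the tumour necrosis factor family had the second largest share of rises, 12 of 17, with 1 lower and a median of 1.69. Among receptors, Tnfrsf4 (OX40) read 9.09, 9.01 and 8.89 against 5.06, 4.96 and 4.74 (difference 4.08, SE 0.14, adjusted p = 9.54e-07) and Tnfrsf9 (4-1BB) 8.07, 8.02 and 7.66 against 2.91, 3.74 and 4.02 (difference 4.36). Neither receptor passed against LG_eTreg, with differences of -0.23 (adjusted p = 0.510) and -0.95 (adjusted p = 0.0991). Among ligands, Tnfsf11 (RANKL), known for driving osteoclasts, read 8.29, 8.72 and 8.55 against 4.47, 5.24 and 4.31 (difference 3.85) and Tnfsf14 (LIGHT) 4.55, 5.67 and 5.91 against 0.65, 1.93 and 1.50 (difference 4.02, SE 0.64). These ligands were also above LG_eTreg, Tnfsf11 by 1.82, Tnfsf14 by 3.22 and Tnfsf8 by 3.89 (adjusted p = 0.00440, 0.0217 and 0.000132). Of the 17 genes, 7 were higher and 3 lower than in LG_eTreg, where 2.76% and 2.94% of all genes were. The 1 gene lower than in LG_naïve was Tnfrsf1a, a receptor of tumour necrosis factor itself (-1.38). By the mean of all probe sets, the difference was 2.26 for Tnfrsf9, 3.15 for Tnfsf11 and 2.45 for Tnfsf14.

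**Figure D3:**
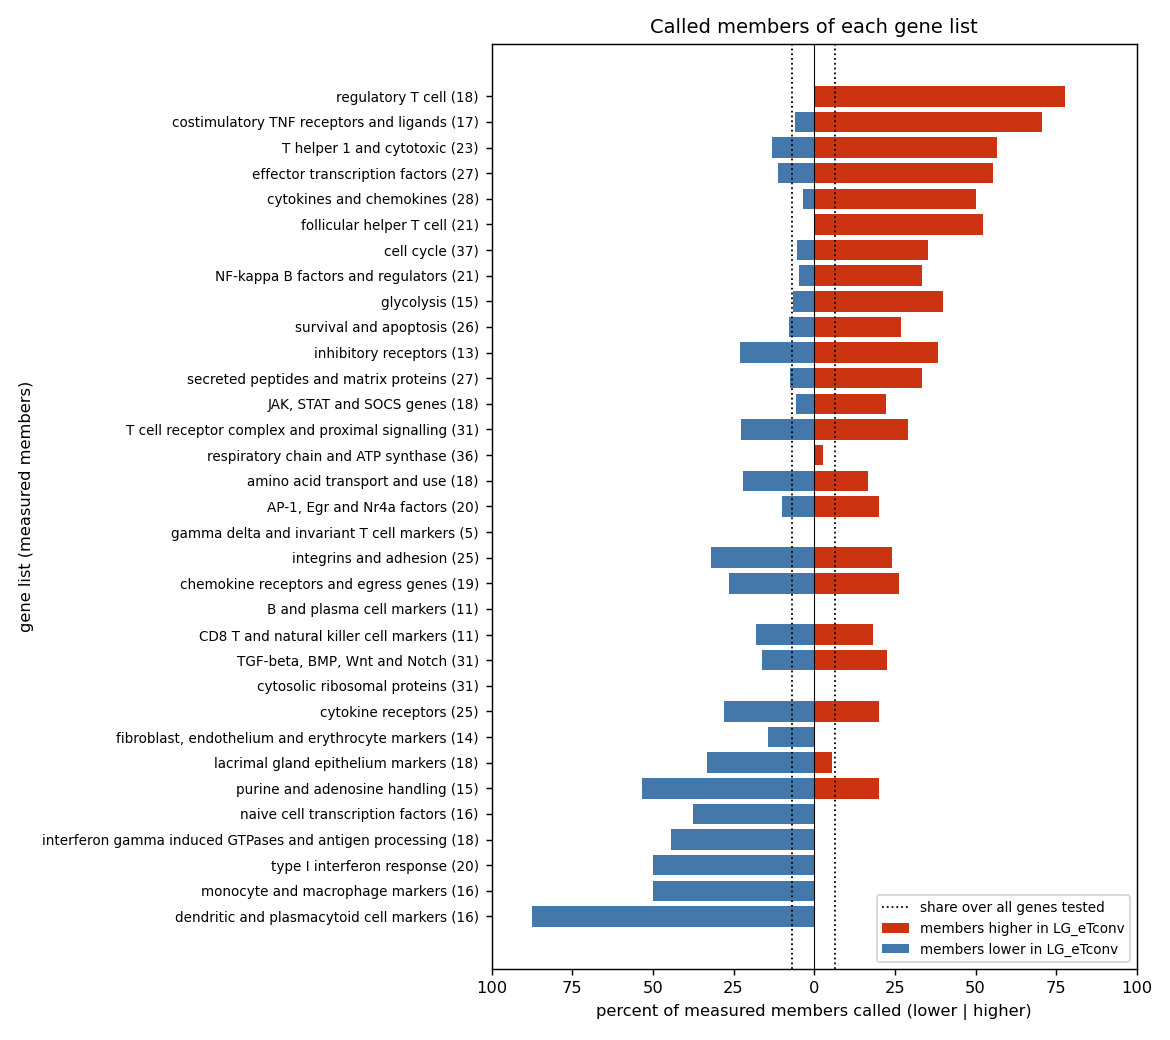
Percent of the measured members of 33 gene lists called higher (red, to the right) or lower (blue, to the left) in LG_eTconv than in LG_naïve, ordered by the median difference, with dotted lines at the 6.45% and 7.02% of all genes. Regulatory T cell, costimulatory and T helper 1 lists reach farthest to the right, and dendritic cell markers, 14 of 16 lower, farthest to the left.

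Of 18 measured genes known from regulatory T cells, Foxp3 not called among them, 14 were higher and 0 lower, 1 more passed an unadjusted p of 0.05, and the median was 2.17. Ccr8, a chemokine receptor of tissue T cells, read 6.55, 5.96 and 5.79 against 0.63, 0.51 and 0.82, at least 25.3-fold higher, with LG_eTreg at 6.80, 6.36 and 6.50. Socs2, a suppressor of cytokine signalling, rose by 3.86, and Tnfrsf9, Tnfrsf4 and Il10, given above, also belong to the list. Ikzf2, the factor Helios, read 7.58, 8.61 and 8.59 against 5.19, 5.81 and 5.68 (difference 2.70, adjusted p = 0.000383) and 9.35, 9.37 and 9.11 in LG_eTreg. Prdm1, the factor Blimp-1, did not pass, at 4.69, 5.03 and 3.92 against 3.95, 4.36 and 4.54 (adjusted p = 0.642), whereas LG_eTreg read 8.04, 8.13 and 8.03. Il2ra, the high-affinity chain of the interleukin-2 receptor, read 5.34, 5.12 and 4.91 against 4.34, 4.79 and 4.60 and fell just short (adjusted p = 0.0564; it passed without LG_eTconv 3 or without LG_naïve 2, with an adjusted p of 0.0490). Of the 18 genes, 8 were lower than in LG_eTreg, where 2.94% of all genes were, and 0 higher. Averaged over its probe sets, the difference was 1.99 for Socs2.

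Effector transcription factors were higher in 15 of 27 cases and lower in 3, with a median of 1.01. Bhlhe40, which supports cytokine production, read 9.89, 9.94 and 9.97 against 7.15, 6.67 and 7.33 (difference 2.88, SE 0.16, adjusted p = 1.08e-05) and Nfil3, a bZIP factor, rose by 2.72. Ahr, a ligand-activated factor, read 7.54, 7.17 and 7.05 against 2.99, 4.66 and 4.55 (difference 3.19, or 2.51 without LG_naïve 1, LG_eTconv 1 and LG_eTreg 3). Hif1a, the hypoxia-inducible factor, rose by 1.03 and Rora, a nuclear receptor, by 1.64. Irf4 was high in both groups, at 9.36, 9.51 and 9.41 and 9.23, 9.12 and 9.08 (adjusted p = 0.137), and above the 6.67 of Spl_CD4. Batf, its partner, did not pass (4.89, 5.75 and 5.63 against 5.17, 4.26 and 3.82, adjusted p = 0.244) and did so in 1 of the 20 alternative settings, without LG_naïve 1, LG_eTconv 1 and LG_eTreg 3. Irf8, better known from dendritic and B cells, fell by 2.74, with 3.44, 3.61 and 3.49 against 6.45, 6.11 and 6.21; the other lower factors were Runx3 and Eomes, the latter not called without LG_eTconv 3, LG_naïve 2 or LG_naïve 3 (adjusted p 0.0615 to 0.0733). The mean of all probe sets gave a difference of 1.94 for Ahr, 2.05 for Hif1a and 0.77 for Rora.

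Of 13 genes measured of the inhibitory receptor list, 5 were higher and 3 lower (median 0.29), where 6.45% and 7.02% of all genes were. The list also holds a ligand gene, Pdcd1lg2, and an enzyme gene, Entpd1, both among the rises. Lag3, which binds MHC class II, read 6.48, 6.63 and 6.98 against 3.11, 2.65 and 3.06 (difference 3.75, adjusted p = 2.09e-05). Ctla4, which competes for CD80 and CD86, read 9.84, 10.01 and 10.06 against 8.38, 8.12 and 8.42 (difference 1.66), and LG_naïve itself lay above the 5.57 of Spl_CD4. Btla, an inhibitory partner of the herpesvirus entry mediator, rose by 1.14 and was 1.52 above LG_eTreg (adjusted p = 0.000208). In the other direction, Cd244a, a receptor of the SLAM family, read 1.99, 3.13 and 1.57 against 6.09, 5.87 and 6.90 (-4.06, adjusted p = 0.000426), and Lair1 is given with the dendritic cell genes below. Cd96, a nectin-family receptor, fell by 0.62, a call lost without LG_eTconv 2, LG_eTconv 3, LG_naïve 1 or LG_naïve 3 (adjusted p 0.0543 to 0.0695); Pdcd1lg2 and Entpd1 complete the rises. For Cd244a, the mean of all probe sets gave -2.01.

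Of 25 cytokine receptor genes, 5 were higher and 7 lower, where 6.45% and 7.02% of all genes were, with a median of -0.22. Il2rb, shared by the interleukin-2 and interleukin-15 receptors, read 8.10, 8.14 and 8.22 against 5.26, 5.46 and 5.81 (difference 2.64, adjusted p = 1.2e-05), and Il1r2, a decoy for interleukin-1, rose by 2.67. Lifr, the receptor of Lif, went the other way, with 1.04, 2.24 and 1.35 against 5.92, 5.70 and 5.92 (-4.30, SE 0.30, adjusted p = 3.64e-05). Il17ra fell by 1.24 and Tgfbr2, a receptor of TGF-β, by 0.83. Of 18 JAK, STAT and SOCS genes, 4 were higher and 1 lower. The rises were Socs2, Stat4, Jak2 (0.69) and Cish, an inhibitor that STAT5 induces (6.27, 6.29 and 6.12 against 4.51, 3.68 and 4.19, difference 2.10). The 1 lower gene, Stat2, was not called without LG_eTconv 1, LG_eTconv 2, LG_naïve 1 or LG_naïve 3 (adjusted p 0.0519 to 0.0839). The Lifr difference was -1.62 with probe sets averaged.

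Of 31 T cell receptor and proximal signalling genes measured, 9 were higher and 7 lower (median 0.13), where 6.45% and 7.02% of all genes were. Among chains of the receptor complex, Cd3g rose by 0.51 (adjusted p = 0.0380), a call lost in 8 of the 20 alternative settings, among them without LG_eTconv 2, LG_eTconv 3, LG_eTreg 2 or any 1 LG_naïve array (adjusted p 0.0569 to 0.122). Other chains did not pass, with differences for Cd3d of 0.02 (adjusted p = 0.946) and Cd247 of 0.37 (adjusted p = 0.410). Zap70, the kinase that the receptor recruits, rose by 1.25, and Ubash3b, a phosphatase that limits it, by 1.73. The Tec family kinases Txk and Tec fell, Txk with 1.56, 1.32 and 1.35 against 4.42, 4.39 and 4.62 (-3.07, adjusted p = 5.18e-05) and Tec by 1.90. Pag1, an adaptor that restrains Lck, fell by 1.70 and Grap2, an adaptor of the Lat complex, by 2.18. Averaged over its probe sets, the difference was -1.08 for Grap2.

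Of 21 NF-κB genes, 7 were higher and 1 lower (median 0.44), where 6.45% and 7.02% of all genes were. Only 4 were higher without LG_eTconv 2 or without LG_naïve 3. Rel, a subunit of the factor, read 7.40, 7.73 and 7.45 against 5.48, 6.23 and 6.06 (difference 1.60, adjusted p = 0.00203) and Nfkbia, its inhibitor and target, 7.86, 8.32 and 8.27 against 6.66, 6.91 and 6.80 (difference 1.36). The 1 lower gene was Ikbkb, a kinase of that inhibitor (-0.54), and it did not pass when probe sets were averaged (adjusted p = 0.148). Of 20 immediate early genes, 4 were higher and 2 lower, with a median of 0.06. Nr4a2, an orphan receptor induced by antigen, rose by 1.64, and the MAP kinase phosphatase gene Dusp6 by 0.84; Dusp1 and Dusp2 were the other rises, and Dusp2 was not called without LG_eTconv 1 or LG_naïve 3 (adjusted p 0.0551 to 0.0558). Jun and Egr1 were slightly lower, by 0.63 and 0.54. The call of Jun was lost without LG_eTconv 1, LG_eTconv 2, LG_naïve 2 or LG_naïve 3 (adjusted p 0.0528 to 0.0587) and that of Egr1 without LG_naïve 1, LG_eTconv 1 and LG_eTreg 3 together (adjusted p = 0.0706). Cd69, an early activation antigen, was high in both groups (8.12, 8.24 and 8.19 and 7.87, 8.08 and 8.02, adjusted p = 0.399) and above the 6.81 of Spl_CD4.

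Of 26 survival and apoptosis genes measured, 7 were higher and 2 lower (median 0.33), where 6.45% and 7.02% of all genes were. Casp4, an inflammatory caspase, read 7.82, 7.84 and 8.00 against 3.63, 4.89 and 5.30 (difference 3.28), Bcl2a1a, an anti-apoptotic Bcl2 relative with near-identical copies that a probe set may not separate, rose by 1.94, and Bcl2l1 (Bcl-xL) by 0.95. Bcl2l11, which encodes the pro-apoptotic protein Bim, fell, with 6.55, 6.26 and 6.84 against 8.39, 8.48 and 8.32 (-1.85, adjusted p = 0.000144). The remaining rises were Casp1, another inflammatory caspase (1.78), the death ligand genes Fasl (0.86) and Tnfsf10, and the pro-apoptotic Pmaip1. Rises thus held genes that act for and against cell death. The calls of Fasl and Pmaip1 were lost in 6 and 13 of the 20 settings. The other lower gene was Bbc3, and 1 rather than 2 were lower without LG_eTconv 2, LG_naïve 1 or LG_naïve 2. The mean of all probe sets gave a difference of 0.34 for Bcl2l1 and -1.03 for Bcl2l11.

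Cell cycle genes were higher in 13 of 37 cases and lower in 2, with a median of 0.45. Mki67, a proliferation antigen, read 4.22, 5.29 and 6.22 against 0.92, 2.72 and 1.93 (difference 3.39, SE 0.62, adjusted p = 0.00731), and Top2a, a topoisomerase of dividing cells, 4.03, 4.93 and 5.05 against 2.41, 1.88 and 1.61 (difference 2.70). Nusap1, a spindle protein, was at least 7.21-fold higher, and Birc5 (survivin) rose by 3.02, or by 3.71 without LG_naïve 1, LG_eTconv 1 and LG_eTreg 3. LG_eTconv 1 was the lowest LG_eTconv array for 11 of the 13 higher genes. It had the widest actin control gap but not the widest GAPDH gap, and the part of RNA quality in these levels was not tested. Spl_CD4 read 4.71 for Mki67 and 3.50 for Top2a, so total spleen CD4 cells also carried these transcripts. The 2 lower genes, Ccnd1 and Cdkn2d, encode a cyclin and an inhibitor of its kinases; 1 was lower without LG_eTconv 1, LG_eTconv 2 or LG_naïve 2. The differences by the mean of all probe sets were 0.98 for Top2a and 1.67 for Nusap1.

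Glycolysis genes were higher in 6 of 15 cases and lower in 1 (median 0.43). Tpi1, triosephosphate isomerase, read 6.57, 6.80 and 7.49 against 4.33, 4.29 and 4.21 (difference 2.67, adjusted p = 0.000144), Hk2, a hexokinase, rose by 1.94 and Pgk1, phosphoglycerate kinase, by 0.67. The 1 lower gene was the glucose transporter Slc2a3 (-1.40), a call lost without LG_eTconv 2, LG_eTconv 3, LG_naïve 2 or LG_naïve 3 (adjusted p 0.0611 to 0.0653). Of the respiratory chain genes, 1 of 36 was higher and 0 lower, with a median of 0.09, and 5 passed an unadjusted p of 0.05. The 1 higher gene, Ndufb8, was not called without LG_eTconv 1, LG_eTconv 2, LG_eTconv 3 or LG_naïve 1 (adjusted p 0.0510 to 0.0768). Cytosolic ribosomal protein genes gave 0 higher and 0 lower of 31 by limma, with 8 at an unadjusted p under 0.05. Their median was -0.21, and all 31 differences were below 0, from -0.77 to -0.03. In 23 of them the groups did not overlap, where 17.2% of all genes had non-overlapping groups with LG_eTconv lower. Of 18 amino acid genes, 3 were higher and 4 lower (2 lower without LG_eTconv 3), where 6.45% and 7.02% of all genes were. Psat1, of serine synthesis, rose by 1.05 and Odc1, of polyamine synthesis, by 1.28, while the lower genes were Slc6a6, Phgdh, Slc7a5, a large neutral amino acid transporter (-0.99), and Bcat2, the mitochondrial relative of Bcat1 (-1.10). Slc6a6 was lost without any 1 of the gland arrays other than LG_eTconv 1 (adjusted p 0.0596 to 0.129), and Phgdh without LG_eTconv 1 or LG_eTconv 3 (adjusted p 0.0501 to 0.0527). For Slc2a3, the mean of all probe sets gave -0.79.

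Among the 15 largest falls, Pdlim4, an actin-associated LIM protein, read 0.45, 0.56 and 0.58 in LG_eTconv and 6.87, 6.06 and 6.57 in LG_naïve, at least 35.8-fold lower (adjusted p = 1.77e-06). Trat1, an adaptor that stabilises the T cell receptor complex, read 1.94, 1.78 and 1.95 against 6.94, 6.85 and 6.88 (-5.00, SE 0.16, adjusted p = 8.94e-07). LG_eTreg lay between, at 3.82, 4.44 and 3.87, so LG_eTconv was the lowest of the 3 subsets for it (-2.15 against LG_eTreg, adjusted p = 0.000124). Igfbp4, a binding protein of insulin-like growth factors that naive T cells express, read 3.22, 3.19 and 2.87 against 7.82, 7.62 and 7.65 (-4.60). Atp1b1, a sodium pump subunit, read 4.58, 4.29 and 3.93 against 8.80, 8.68 and 8.79 (-4.49, adjusted p = 2.06e-06) and Prkd3, protein kinase D3, 1.92, 2.03 and 2.36 against 6.80, 6.82 and 6.76 (-4.69). Nedd4l, a ubiquitin ligase, was at least 17.4-fold lower and Cd177, a surface protein known from neutrophils, at least 10.5-fold lower. Trim36, a ubiquitin ligase, fell by 4.88 (7.52, 6.03 and 5.43 in LG_naïve), or by 4.28 without LG_naïve 1, its highest array. Als2cl, a relative of alsin, fell by 4.55 and Fmnl2, a formin that nucleates actin, by 4.42, and both spread by more than 1 log2 unit among the LG_eTconv arrays. With all probe sets of a gene averaged, the difference was -2.78 for Prkd3, -1.40 for Nedd4l, -3.33 for Trim36 and -3.30 for Als2cl.

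**Figure D4:**
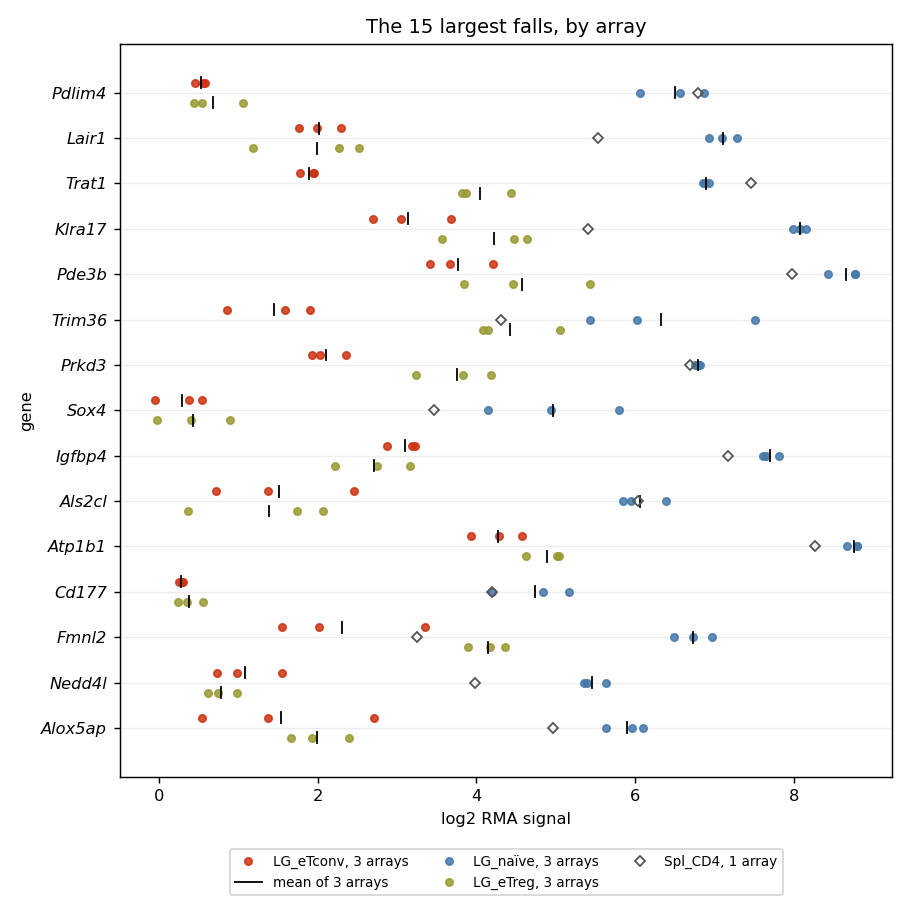
Log2 RMA signal (horizontal) of the 15 largest falls on each LG_eTconv, LG_naïve and LG_eTreg array and on the single Spl_CD4 array, with a bar at each mean of 3. All LG_naïve points lie to the right of the LG_eTconv points, which was a condition for these genes to be picked. LG_eTreg is higher than LG_eTconv for Trat1, Prkd3, Trim36 and Fmnl2.

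Factors that keep T cells naive fell in 6 of 16 cases and rose in 0 (9 passed an unadjusted p of 0.05), with a median of -0.54. Satb1, an organiser of chromatin, read 5.71, 5.80 and 5.60 against 9.06, 9.16 and 9.05 (-3.39, SE 0.10, adjusted p = 7.19e-07) and 7.15, 7.35 and 7.15 in LG_eTreg. Klf2, which drives the exit receptors of T cells, read 3.21, 4.13 and 4.86 against 7.64, 7.06 and 7.47 (-3.33, adjusted p = 0.00103) and Klf3, its relative, fell by 2.10. Lef1, a partner of β-catenin, was at background on every LG_eTconv array and 3.93, 3.72 and 4.58 in LG_naïve, at least 6.67-fold lower, and Sox4 at least 12.3-fold lower. Bach2, which restrains effector genes, read 7.57, 7.47 and 7.41 against 8.33, 8.34 and 8.32 and did not pass (adjusted p = 0.144); LG_eTreg was lower still (4.82, 4.79 and 3.44, 3.13 below LG_eTconv, adjusted p = 0.000730). The Bach2 difference did pass in 4 of the 20 settings. Among these were the fit of only the 6 LG_eTconv and LG_naïve arrays and the mean of probe sets. The others left out LG_eTreg 3, alone (adjusted p = 0.000822) or together with LG_naïve 1 and LG_eTconv 1. The mean of all probe sets gave a difference of -4.77 for Satb1 and -1.57 for Sox4.

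Of 19 migration receptor genes measured, 5 were higher and 5 lower, where 6.45% and 7.02% of all genes were. The rises were Ccr8, Cxcr3, Cxcr5, Cxcr6 (2.24) and Ccr6 (2.09). S1pr1, through which T cells leave tissue, read 4.04, 3.95 and 4.20 against 6.37, 6.11 and 6.38 (-2.22, adjusted p = 6.75e-05), and S1pr4 fell by 1.19. Gpr183, an oxysterol receptor, read 4.87, 4.46 and 4.11 against 8.06, 7.45 and 7.95 (-3.34), and Ccr2, of monocytes and memory T cells, was at background in LG_eTconv, at least 4.72-fold lower, but 4.71, 4.43 and 4.61 in LG_eTreg. Of 25 adhesion genes, 6 were higher and 8 lower. Itgb1, the β1 integrin chain, rose by 2.25, Alcam, a CD6 ligand, by 2.12 and Cd44, a hyaluronan receptor of antigen-experienced cells, by 1.81. Itgb3, the β3 chain, fell by 3.24 and Ly6c1 by 3.31. Itgae, the CD103 chain that binds E-cadherin, rose by 1.18 (adjusted p = 0.0241), a call lost in 4 of the 20 settings, among them without LG_naïve 1 (adjusted p 0.0598 to 0.0650), but was far below LG_eTreg (4.07, 3.07 and 3.32 against 7.66, 7.81 and 7.63). The differences by the mean of all probe sets were 1.63 for Cxcr6, -2.71 for Gpr183, -1.53 for Ccr2, 1.61 for Itgb1 and -1.71 for Itgb3.

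Among genes of purine handling 3 of 15 were higher and 8 lower (5 without LG_naïve 1, LG_eTconv 1 and LG_eTreg 3), with a median of -0.53. Pde3b, which breaks down cyclic AMP, read 4.21, 3.67 and 3.42 against 8.43, 8.77 and 8.77 (-4.90, adjusted p = 6.37e-05) and Pde4b, of the same function, fell by 0.76. P2ry14, a receptor of UDP-glucose, was at least 11.2-fold lower. Dpp4 (CD26), a surface peptidase, fell by 2.19 and Ada, adenosine deaminase, by 2.09, the latter with 1.82, 1.06 and 1.70 against 3.06, 3.57 and 4.22. Entpd1 (CD39), which degrades ATP, rose by 1.43, as did Slc29a1, a nucleoside transporter, by 0.72 and Pde7a, a further phosphodiesterase, by 1.17; Pde7a did not pass when probe sets were averaged (adjusted p = 0.206).

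Genes of the interferon-γ induced list were lower or not called, while Cxcl10, which interferon-γ also induces and which is not in that list, rose as given above. Ifngr1, the ligand-binding chain of its receptor, read 3.98, 4.14 and 3.48 in LG_eTconv, 7.27, 7.03 and 7.27 in LG_naïve and 7.54, 7.76 and 7.74 in LG_eTreg, 3.32 below LG_naïve (SE 0.17, adjusted p = 7.58e-06) and 3.81 below LG_eTreg (adjusted p = 8.8e-06). Ifngr2, the signalling chain, fell by 1.37 (adjusted p = 0.00733). Of 18 induced genes measured, 8 were lower and 0 higher, where 7.02% and 6.45% of all genes were, and 10 passed an unadjusted p of 0.05; the median was -0.60. They were 4 immunity-related GTPase genes, 3 guanylate-binding protein genes and Irf1, a factor of the pathway. Irgm2 read 5.99, 6.76 and 6.93 against 8.48, 8.36 and 8.31 (-1.83), Gbp2 6.71, 6.05 and 6.59 against 7.49, 8.12 and 7.80 (-1.35) and Tgtp1 8.20, 8.14 and 8.20 against 9.06, 9.36 and 9.23 (-1.04). Irf1 fell by 0.84 (adjusted p = 0.000589), and Igtp and Gbp7 by 0.88 and 0.66. The weakest calls were Gbp3, at -0.64, lost without any 1 of the LG_eTconv or LG_naïve arrays or without LG_eTreg 3 (adjusted p 0.0562 to 0.132), and Irgm1, at -1.20, lost without LG_naïve 1, LG_eTconv 1 and LG_eTreg 3 together (adjusted p = 0.103). The Ifngr2 difference was -2.51 with probe sets averaged.

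**Figure D5:**
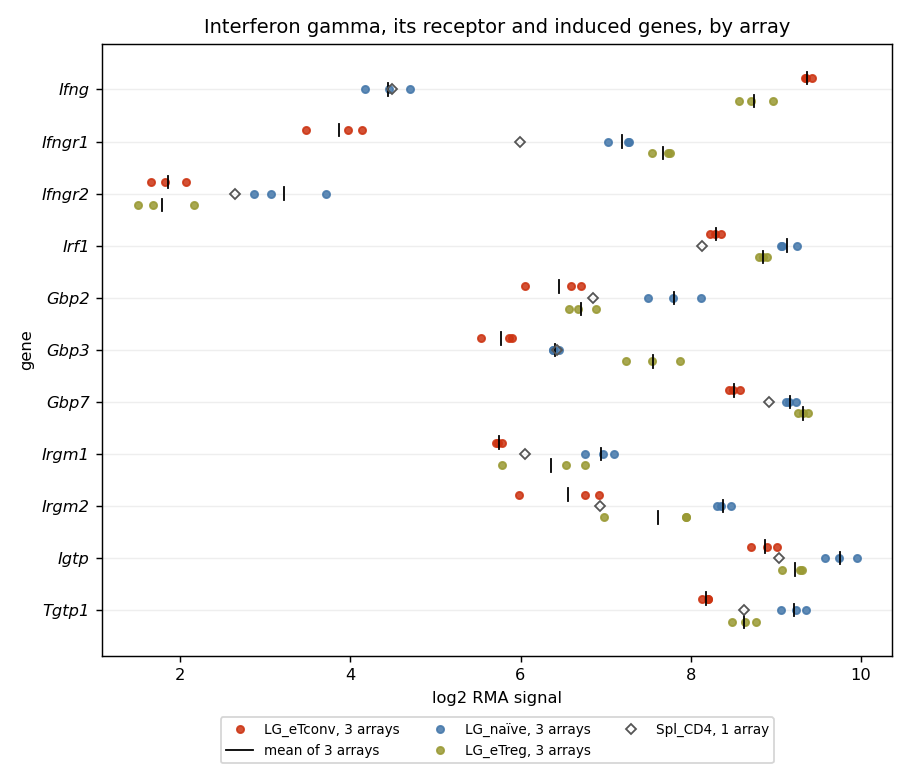
Log2 RMA signal (horizontal) of Ifng, both receptor chains and the 8 called interferon-γ induced genes on each LG_eTconv, LG_naïve and LG_eTreg array and on the single Spl_CD4 array, with a bar at each mean of 3. LG_eTconv is the highest subset for Ifng and lies below LG_naïve for all the other genes, and Ifngr1 is lowest in LG_eTconv.

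The list of type I interferon response had 20 measured genes, of which 10 were lower and 0 higher, where 7.02% and 6.45% of all genes were. An unadjusted p of 0.05 was passed by 14, and the median was -0.66. Oasl1 and Oas2, which belong to the antiviral oligoadenylate synthetase family, read 1.23, 0.66 and 1.31 against 4.14, 3.93 and 4.20 (-3.02, adjusted p = 2.66e-05) and 3.41, 2.75 and 2.55 against 6.18, 5.54 and 5.60 (-2.87). Ifit2, which binds viral RNA, fell by 2.14 and Ddx58, the sensor RIG-I, by 1.30. Against LG_eTreg 15 of the 20 were lower, where 2.94% of all genes were, and 0 higher; Ifit2 was 1.92 below it (adjusted p = 0.000366). Among the called genes, 7 of the 10 were lowest on LG_eTconv 2. The weakest of the 10 was Zbp1, a sensor of nucleic acids (-1.83), lost in 11 of the 20 settings, among them without any 1 LG_eTconv or LG_naïve array or without LG_eTreg 2 (adjusted p 0.0547 to 0.156). Mx1, an antiviral GTPase, differed the other way, at 5.66, 5.84 and 6.03 against 5.10, 4.65 and 5.54 (0.74, adjusted p = 0.0521), and was called higher in 6 of the 20 settings, among them without LG_naïve 3 (adjusted p = 0.0119). Averaged over its probe sets, the difference was -0.97 for Zbp1.

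Of 31 genes of TGF-β, BMP, Wnt and Notch signalling, 7 were higher and 5 lower (median -0.07), where 6.45% and 7.02% of all genes were. Nrp1, a co-receptor of semaphorins and TGF-β, rose by 2.55 (8.50, 8.56 and 8.71 against 5.86, 6.25 and 6.01), Rbpj, the DNA-binding partner of Notch, by 2.16 and Fzd6, a Wnt receptor, by 2.41. Dtx1, a Notch target, fell by 2.30, Acvr1b, an activin receptor, by 2.10, and Smad7 and Smad3, an inhibitor and a carrier of TGF-β signals, by 1.23 and 0.81. Smad3 did not pass when probe sets were averaged (adjusted p = 0.550). Tgfbr2, given above, was the remaining lower gene. Of 27 secreted and matrix genes, 9 were higher and 2 lower (Igfbp4, and Vegfa, whose call was lost with values at the background limit), a list that holds Nts, Penk, Ccn4 and Col24a1 and was drawn up with their rise known. S100a4 and S100a6 encode calcium-binding proteins. S100a4 read at least 9.92 on each LG_eTconv array, against 5.98, 6.84 and 7.01 (difference 3.35), and S100a6 8.04, 8.17 and 8.35 against 4.27, 4.61 and 4.85 (difference 3.61). The mean of all probe sets gave a difference of 3.40 for Nrp1, 1.40 for Fzd6 and -1.05 for Acvr1b.

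Markers of other cells were measured beside these results, since a sort gate can pass some of them. Of 16 dendritic and plasmacytoid cell genes, 14 were lower in LG_eTconv and 0 higher, with a median of -1.96 (-1.69 at the background limit). Their summed signal on a linear scale ran from 486 to 585 in LG_eTconv and from 1893 to 2463 in LG_naïve. This list holds 2 of the largest falls, Klra17 (Ly49Q), at 3.05, 3.68 and 2.70 against 8.16, 8.08 and 7.99 (-4.94), and Lair1, a collagen receptor, at 2.29, 1.77 and 1.99 against 6.94, 7.29 and 7.10 (-5.09). It also holds Ccr9 (-4.15), Spib (-2.99) and Tcf4, a factor that plasmacytoid cells need (4.43, 4.61 and 4.38 against 5.69, 6.24 and 6.05). T cells can express Ccr9 and Lair1, and Spl_CD4 read 5.41 for Klra17 and 5.54 for Lair1. Flt3, a receptor of dendritic cell growth, read 1.88, 2.56 and 3.66 in LG_naïve and was at background in LG_eTconv, and the class II gene H2-Aa fell by 2.18. The part of such cells in the lower genes, Irf8 and the interferon response genes among them, was not tested. The differences by the mean of all probe sets were -3.48 for Lair1, -2.66 for Ccr9 and -0.85 for H2-Aa.

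Of 16 monocyte and macrophage genes, 8 were lower (5 without LG_naïve 2) and 0 higher, with summed signals of 694 to 707 in LG_eTconv and 1059 to 1376 in LG_naïve. Tyrobp, an adaptor of myeloid and natural killer receptors, read 4.60, 4.72 and 4.15 against 7.81, 8.06 and 8.33 (-3.58) and Cd14, of the endotoxin receptor, 2.04, 1.34 and 1.79 against 4.56, 4.90 and 4.94 (-3.08). Alox5ap, of leukotriene synthesis in myeloid cells, was among the 15 largest falls at -4.36, or -5.07 without LG_naïve 1, LG_eTconv 1 and LG_eTreg 3. Csf1r, the receptor that defines macrophages, was at background on all 6 arrays. Of 18 lacrimal gland epithelium genes, 6 were lower and 1 higher, with summed signals of 110 to 161 in LG_eTconv and 390 to 841 in LG_naïve. Ltf, lactoferrin, a main protein of tears, read 2.87, 5.39 and 3.62 against 7.21, 8.33 and 7.61 (-3.76, or -4.47 without LG_eTconv 2; adjusted p = 0.0510 without LG_naïve 1, LG_eTconv 1 and LG_eTreg 3) and Krt18, an epithelial keratin, 3.06, 3.70 and 3.64 against 5.77, 6.81 and 6.01 (-2.73). LG_naïve 2 was the highest array for all 6 lower genes, so these transcripts varied from array to array. The 1 higher gene, Muc1, was not called without LG_eTconv 1.

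B and plasma cell genes gave 0 higher and 0 lower of 11 by limma, 1 at an unadjusted p under 0.05, with summed signals of 274 to 355 in LG_eTconv and 405 to 481 in LG_naïve. Ms4a1 (CD20) read 3.56, 3.85 and 3.32 and 3.46, 3.56 and 3.27, below the 6.97 of Spl_CD4. Of 11 CD8 and natural killer genes, 2 were higher and 2 lower, where 6.45% and 7.02% of all genes were. Cd8a was higher by 1.56 (6.83, 6.47 and 6.16 against 5.19, 4.51 and 5.07, adjusted p = 0.00161), while its partner chain Cd8b1 read 1.18, 1.65 and 1.77 and 1.83, 1.69 and 1.56, near background (adjusted p = 0.809), and Ncr1, which defines natural killer cells, was at background on all 6 arrays. The other rise was Klrc1, at least 1.68-fold higher, a call lost in limma with values at the background limit (adjusted p = 0.254). Klrd1, a lectin receptor of natural killer cells and some T cells, fell by 2.47 and Eomes was the other lower gene; 1 of the 2 lower calls was lost without LG_eTconv 3, LG_naïve 2 or LG_naïve 3. None of 5 measured γδ and invariant T cell genes was called by limma, and 0 passed an unadjusted p of 0.05. Of 14 fibroblast, endothelium and erythrocyte genes, 2 were lower (Pecam1 and Cdh5) and 0 higher, a lower count that ran from 0, without any 1 LG_eTconv array, to 5, without LG_naïve 1.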

How the data were processed

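RNA of sorted T cells was measured on 11 mouse arrays, 1 sample each. The authors deposited 1 table of log2 signals for 45141 probe sets; RMA and Partek are named, without versions or settings, per the submitters' processing notes, and the log base was inferred from the range of the values. RMA normalizes arrays to a common distribution, so a shift of all genes together would not be seen, and arrays give no counts, so their number limits the precision. Of 45037 probe sets that are not controls, 28898 named 1 gene, 551 several and 15588 none in the platform annotation, and 28689 matched a RefSeq gene by Entrez identifier. Each of 17097 genes was represented by its brightest probe set, by the mean of the 9 gland arrays (7180 genes had several). In 1 called gene, probe sets were called in opposite directions.

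Group means of the 9 gland arrays (3 groups of 3, 6 residual degrees of freedom) were fitted with limma 3.58.1 in R 4.3.3, without a block, and moderated by eBayes, and p-values were two-sided and adjusted by Benjamini-Hochberg over all genes. The background limit of an array was its highest signal among 23 nonspecific control probe sets. On simulated data for this comparison, with 17097 genes, the fit called 54% of genes shifted by 1 and 88% of those shifted by 2 on the log2 scale (100 each), with 8 false calls among 16897.

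Genes were named by rule: the markers, the 15 largest called rises and falls, up to 5 called genes of each list, some fixed genes, and the 8 called rises farthest above LG_eTreg, leaving out the genes of the sort gate. The 15 rises and 15 falls were picked among called genes whose groups did not overlap. Of the rest that are named, 100 called genes were chosen after their values were seen. The members and lists were chosen with earlier results of these data known, so lists are described by counts and medians only. The labels give RNA integrity numbers above 9.1 for all samples but 1, at 7.8, and do not say which. Some genes of the fixed set are not reported here.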

Additional observations from a re-analysis of the deposited data

How the results depend on the processing

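In all 20 alternative settings both counts stayed within 1.5 times those reported, and no called gene that is named changed sign. Genes higher in LG_eTconv numbered 894 to 1153, and genes lower 854 to 1261, when 1 of the 9 gland arrays was left out. The lowest count of higher genes was 881, with 899 lower, with dim values raised to the background limit, and the highest counts were 1307 and 1518, with array weights. The share of higher genes among the calls was 47.9%, and 46.3% to 51.8% in the alternatives. Without LG_naïve 1, LG_eTconv 1 and LG_eTreg 3 together, whose control probe sets stood apart, 951 were higher and 1017 lower.

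The labels do not say whether the replicate numbers pair the arrays. Deviations from the group means correlated at -0.05, 0.07 and 0.00 between same-numbered LG_eTconv and LG_naïve arrays. Between the others they correlated at -0.11 to 0.10. With 3 arrays a group, these values cannot decide whether same-numbered arrays share an origin. With the number as a replicate block, 1090 genes were higher and 1181 lower, of which 991 and 1050 were among those called without it.

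Of 149 called genes named by rule, 132 were called in all 20 settings, as were 71 of 100 chosen after their values were seen. Averaging the probe sets of a gene, in place of its brightest, moved 69 of these differences by over 1.5 times, 64 of them towards 0. Signals near background limit the fold of the genes given as at least N-fold. With 3 arrays a group, 54% of simulated shifts of 1 were called, in a simulation where far fewer genes differed than in the data.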

Other observations

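The genes in this part were chosen after their values were seen, and each was called by limma at the same threshold as the genes above. Tnfsf13b, which encodes the B cell survival factor BAFF, read 6.45, 6.03 and 6.45 in LG_eTconv and 3.13, 2.54 and 1.69 in LG_naïve (difference 3.86, adjusted p = 0.000276), with LG_eTreg at 3.95, 3.75 and 4.82. Il18, an inflammatory cytokine whose receptor chains rose as well, was at background on all LG_naïve arrays and at least 7.77-fold higher in LG_eTconv. Wnt3, a secreted Wnt ligand, was at background in LG_naïve and LG_eTreg and at least 13.3-fold and 15.5-fold higher than in them, while Wnt5b, another ligand of the family, fell by 3.84. Edn3, the precursor of endothelin 3, rose by 4.49, and the matrix protein gene Npnt and the matrix protease gene Mmp10 were at least 12.2-fold and 11.9-fold higher. Efnb2, a membrane ligand of Eph receptors, read 7.83, 8.18 and 8.14 against 5.18, 2.62 and 1.74, a difference of 4.87 that was 5.87 without LG_naïve 1 and 4.15 without LG_naïve 3. By the mean of all probe sets, the difference was 1.73 for Tnfsf13b, -2.30 for Wnt5b, 2.54 for Edn3, 2.09 for Npnt and 3.03 for Efnb2.

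Spry1, an inhibitor of receptor signals to Ras, read 8.06, 8.08 and 8.16 in LG_eTconv and 3.33 on the highest LG_naïve array (difference 5.58, adjusted p = 1.2e-05). The MAP kinase phosphatase gene Dusp4 rose by 4.48, Dusp14 was at least 18.7-fold higher, and Rgs16, which limits G protein signals, rose by 3.78. Rnf128, the ubiquitin ligase GRAIL known from unresponsive T cells, rose by 3.85, and Cd109, a co-receptor that dampens TGF-β signals, was at least 17.7-fold higher. Vdr, the vitamin D receptor, read 5.76, 5.77 and 5.66 against 1.91, 1.81 and 1.33 (difference 4.05). Among the falls, Epas1, the hypoxia factor HIF-2α, fell by 3.94 while Hif1a was higher, Acss2, which makes acetyl-CoA from acetate, fell by 3.96, and Rasgrp2, an activator of Rap1, fell by 4.07. Csf2rb, a receptor chain, and Bcl11a and Pld4, both known from plasmacytoid dendritic cells and B cells, fell by 3.66, 3.60 and 3.70; the part of other cells in these was not tested. With all probe sets of a gene averaged, the difference was 2.41 for Rgs16, 3.57 for Cd109, 3.19 for Vdr, -2.05 for Epas1, -1.67 for Csf2rb and -2.72 for Bcl11a.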
